A study of Mus musculus with 235 samples.

Results

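The markers described here are 7 genes of the endothelium that lines the liver sinusoids, measured in whole liver of 31 inbred mouse strains given isoniazid or vehicle. They are Stab1 and Stab2, Lyve1 and Fcgr2b, Kdr, Pecam1, and Oit3, which are 7 of the 18146 genes that the arrays named. Each was taken from probe sets annotated with that symbol alone, and for a gene with several, the brightest on average stood for the gene. Stab1, Stab2, Kdr, Pecam1 and Oit3 had 1 such probe set each, Lyve1 had 2 and Fcgr2b had 5. The rule names them by symbol, and they were chosen with earlier results of these data known.

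The study asked how the liver response to isoniazid, an antibiotic against tuberculosis that can injure the liver, differs between genetic backgrounds. The isoniazid animals received 100 mg/kg by oral gavage daily for 3 days, and the vehicle animals received sterile water on the same schedule. All animals were female and 8-10 weeks of age, and the left liver lobe was taken 24 h after the last dose. There were 111 arrays of isoniazid animals and 124 of vehicle animals, 1 array per animal. In 9 strains animals died on isoniazid before the end and were not measured: SM/J, MA/MyJ, SEA/GnJ and A/J each had 2 isoniazid arrays, and LP/J, PL/J, NON/LtJ, LG/J and RIIIS/J each had 3. The other 22 strains had 4 isoniazid arrays, and all 31 strains had 4 vehicle arrays. The values of the 9 strains under isoniazid therefore come from survivors, and 13 animals are missing from them. Steatosis, the storage of fat in liver cells, was recorded under isoniazid for 13 strains by the submitters. LG/J was the steatosis strain among the 9 with deaths, and 12 of the other 22 strains had steatosis. All levels are on the log2 scale of the array normalisation, on which array medians ran from 3.96 to 4.21. There were 21 arrays (10 of isoniazid and 11 of vehicle animals) with a narrower spread than the rest, which were retained. The cut between them was taken from these data, at the largest gap among the lower array SDs. The 2 sides nearly met, with an SD of at most 2.202 in the narrow-spread arrays and at least 2.227 in the others.

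Liver sinusoidal endothelial cells form a fenestrated lining without a basement membrane, through which plasma reaches the hepatocytes, and they clear waste molecules from blood by endocytosis. Stab1 and Stab2 encode large scavenger receptors for this clearance, and Stab2 is the main receptor for circulating hyaluronan. Lyve1 encodes another hyaluronan receptor, shared with lymphatic endothelium, and Fcgr2b encodes the inhibitory Fc receptor that takes up immune complexes. Kdr encodes the main signalling receptor for VEGF, on which these cells depend. Pecam1 encodes an adhesion molecule at endothelial cell contacts throughout the body, and Oit3 encodes a secreted protein with a zona pellucida domain that is made in liver. Stab1 is also made by some macrophages, and Fcgr2b by B cells and macrophages.

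Most of the markers gave signal above the array median on most arrays, which does not show the cell type of origin. The array median is that of all probe sets, and by mean level Oit3 stood at the 47.1st percentile of all genes. Stab1, Stab2, Kdr and Fcgr2b lay above the array median on all 235 arrays, Lyve1 lay below it on 1 array and Oit3 on 33. Pecam1 was dim and lay below the array median on 181 of the 235 arrays, so its differences rest on low signal. Of 12 other genes of sinusoidal endothelium, Cd209b was the 1 with a mean below the array medians, at 3.10 log2 units. In a bulk sample, fewer cells of a type and less RNA per cell cannot be told apart.

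The promoters of Stab2 and Kdr, the markers that fell under isoniazid, and of Stab1, the paralog of Stab2, are printed as the 250 bases before the annotated start. ETS factors, whose sites contain GGAA, and GATA factors are general regulators of endothelial genes, and capitals mark matches on either strand to CCGGAA or AGGAAG for ETS and AGATAA or TGATAA for GATA. These 4 motifs were chosen after the data were seen. The sequences are those of RefSeq on build GRCm38.p6, at chr10:87007943-87008192 for Stab2, chr5:75978456-75978705 for Kdr and chr14:31168642-31168891 for Stab1, each on the minus strand and written 5′ to 3′.
Stab2: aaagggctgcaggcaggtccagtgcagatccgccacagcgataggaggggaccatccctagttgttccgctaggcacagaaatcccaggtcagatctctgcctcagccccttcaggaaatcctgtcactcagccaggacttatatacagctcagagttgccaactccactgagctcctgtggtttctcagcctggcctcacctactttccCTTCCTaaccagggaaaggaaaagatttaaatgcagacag
Kdr: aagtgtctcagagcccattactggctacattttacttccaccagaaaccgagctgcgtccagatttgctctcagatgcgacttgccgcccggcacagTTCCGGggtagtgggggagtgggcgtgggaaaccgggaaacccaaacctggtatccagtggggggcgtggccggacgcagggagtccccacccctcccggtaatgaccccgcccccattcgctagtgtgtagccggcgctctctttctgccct
Stab1: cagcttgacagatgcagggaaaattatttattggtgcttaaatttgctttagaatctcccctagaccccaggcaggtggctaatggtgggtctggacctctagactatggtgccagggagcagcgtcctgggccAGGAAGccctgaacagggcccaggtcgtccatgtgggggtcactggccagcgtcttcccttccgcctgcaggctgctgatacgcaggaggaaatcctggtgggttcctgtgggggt
Stab2 and Stab1 each held 1 AGGAAG, Kdr held 1 CCGGAA, and the 2 GATA motifs were absent from these windows. CCGGAA occurs in 12% and AGGAAG in 29.5% of 32851 mouse promoters of the same length, so a match is common. The promoter of Fcgr2b, the other member with an entry, held none of the 4 motifs. Lyve1, Pecam1 and Oit3 are named here without a promoter.

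Stab2 and Kdr fell under isoniazid across the strains, and the other 5 markers did not pass the test. The difference between the isoniazid mean and the vehicle mean was taken in each strain, and these 31 values were tested with limma, with p-values adjusted over all genes by the Benjamini-Hochberg method and a call at an adjusted p under 0.05. Of all genes, 20.0% were called in this comparison and 9.85% were called lower, against 2 of the 7 markers, so the response was broad and the markers' count stands beside that share without a test of its own.

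The 31 strain means of Stab2 ran from 6.49 to 8.11 with a median of 7.18 log2 units under isoniazid, and from 6.68 to 8.32 with a median of 7.49 under vehicle. The ranges overlapped almost wholly. Within strains, the Stab2 difference had a mean of -0.30 log2 units (SE 0.07, 95% interval -0.44 to -0.16, adjusted p = 0.00131 by limma), which is 1.23-fold lower, and it was negative in 21 of 31 strains. The lowest differences were in BTBR T+ tf/J (-1.02), NOR/LtJ (-0.98) and LP/J (-0.93), and the highest differences were in C58/J (0.54), DBA/2J (0.32) and RIIIS/J (0.20). Without the narrow-spread arrays NOR/LtJ was at -0.58, LP/J at -0.60 and DBA/2J at 0.00.

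Kdr ran from 7.04 to 8.05 with a median of 7.61 log2 units over the 31 strains under isoniazid, and from 6.82 to 8.19 with a median of 7.68 under vehicle. The mean Kdr difference was -0.13 log2 units (SE 0.04, 95% interval -0.22 to -0.04, adjusted p = 0.0275 by limma), or 1.10-fold lower, and 19 strains were lower. FVB/NJ had the lowest Kdr difference (-0.75), followed by NOR/LtJ (-0.46, and 0.03 without its narrow-spread arrays) and C57Bl/6J (-0.45), and the highest were PL/J (0.37), C58/J (0.32, and 0.17 without its narrow-spread array) and RIIIS/J (0.21). The call on Kdr lay near the threshold: it was lost with arrays centred on their medians (adjusted p = 0.0508), without the narrow-spread arrays (-0.11, adjusted p = 0.0593), with the animal number as a replicate block (-0.11, adjusted p = 0.0975), and when the animals numbered 1, 2 or 4 were left out (-0.10, -0.14 and -0.13). The animal numbers pair no samples, and the replicate block used only vehicle animals whose number also had an isoniazid array. The call on Kdr was retained in each of 31 fits that left out 1 strain, with differences from -0.15 to -0.11. The call on Stab2 was retained in all of these settings, at -0.28 (adjusted p = 0.000355) without the narrow-spread arrays.

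**Figure D1:**
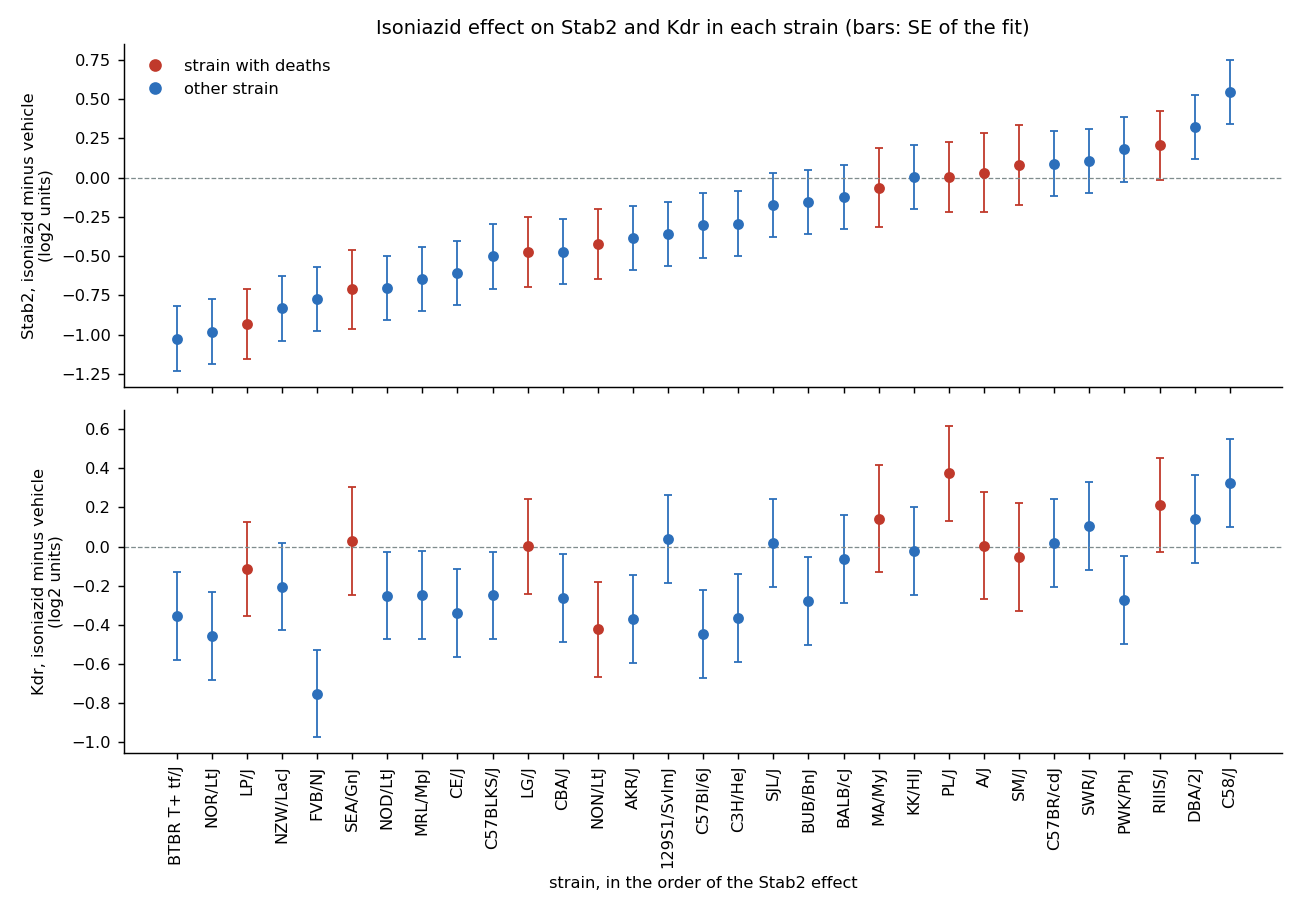
Isoniazid minus vehicle in log2 units for Stab2 (upper panel) and Kdr (lower panel) in each of the 31 strains, in the order of the Stab2 difference, with the standard error of the fit as bars; red points are strains with deaths and blue points are the other strains. Stab2 was below 0 in 21 strains and Kdr in 19, and the red points are spread along the order of Stab2.

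The other markers had mean differences below 0 that did not pass. Their means were smaller than the SD of the strain differences, as were those of Stab2 (SD 0.41) and Kdr (SD 0.25). Fcgr2b differed by -0.10 log2 units (SE 0.06, adjusted p = 0.323) and was lower in 20 strains, from -0.93 in NOR/LtJ (-0.12 without its narrow-spread arrays) to 0.61 in LG/J. Pecam1 differed by -0.08 (SE 0.07, adjusted p = 0.502), from -0.78 in AKR/J to 0.63 in KK/HIJ. Lyve1 differed by -0.05 (SE 0.06, adjusted p = 0.634), from -0.57 in LP/J (-0.29 without its narrow-spread array) to 0.80 in BALB/cJ.

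Stab1, the paralog of Stab2, differed by -0.03 (SE 0.03, adjusted p = 0.595) and had the narrowest spread, from -0.57 in FVB/NJ to 0.21 in MA/MyJ. Oit3 had the widest, from -0.95 in FVB/NJ to 0.85 in SWR/J (0.47 without its narrow-spread array), around a mean of -0.00 (SE 0.09, adjusted p = 0.99), whose sign depended on the processing. The median over the 7 markers was -0.08 log2 units, against 0.00 over all genes.

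The response of Stab2 depended on the strain. In a fit with animals as replicates, the interaction of strain and treatment was called for 17.0% of all genes, and among the markers for Stab2 (F = 3.75, adjusted p = 1.11e-06) and Oit3 (F = 1.91, adjusted p = 0.0354). Without the narrow-spread arrays the interaction was called for 17.3% of all genes, and among the markers for Stab2 alone (adjusted p = 2.83e-05), with an adjusted p of 0.0653 for Oit3. In the fit with all arrays the adjusted p-values of the other 5 lay between 0.105 for Fcgr2b and 0.411 for Kdr, so a difference between strains was not detectable for them with 2 to 4 animals a group. The standard deviation of the strain differences was 0.41 for Stab2, which is at the 95.6th percentile of all genes, and 0.54 for Oit3, at the 98.8th.

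In BTBR T+ tf/J, Stab2 was at 6.87, 7.27, 7.37 and 7.35 log2 units in the 4 isoniazid animals and at 8.26, 8.10, 8.40 and 8.20 in the 4 vehicle animals. The groups did not overlap, and the fall of 1.02 log2 units passed within the strain (adjusted p = 0.000335), where 1.15% of genes were called lower. In NOR/LtJ, Stab2 was at 6.28, 7.31, 6.32 and 6.91 under isoniazid, against 7.50, 7.67, 7.86 and 7.72 under vehicle. These did not overlap either (-0.98, adjusted p = 0.0017, 3.63% of genes called lower). The 2 lowest NOR/LtJ isoniazid values came from narrow-spread arrays, and without them the difference was -0.58 and did not pass (adjusted p = 0.482).

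In NZW/LacJ, Stab2 was at 6.93, 7.37, 6.99 and 7.58 under isoniazid and at 8.23, 7.89, 8.25 and 7.84 under vehicle (-0.83, adjusted p = 0.00151, 3.33% of genes called lower). In LP/J, Stab2 was at 5.93, 7.14 and 6.70 in the 3 survivors, against 7.14, 7.47, 7.75 and 7.72 in the vehicle animals, and the highest survivor and the lowest vehicle animal met (-0.93, adjusted p = 0.0129, 0.463% of genes called lower). The lowest LP/J survivor was a narrow-spread array, and without it the difference was -0.60 and did not pass (adjusted p = 0.153). C58/J went the other way for Stab2, with 8.25, 8.54, 7.66 and 7.98 under isoniazid and 7.41, 7.86, 7.40 and 7.58 under vehicle, a difference of 0.54 that did not pass within the strain (adjusted p = 0.113).

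Without the narrow-spread arrays, a setting added after the data were seen, Stab2 passed within 4 strains. They were BTBR T+ tf/J (-1.02, adjusted p = 1.48e-05, with 2.53% of genes called lower), NZW/LacJ (-0.89, adjusted p = 0.000254, 4.81%), NOD/LtJ (-0.70, adjusted p = 0.0117, 1.85%) and FVB/NJ (-0.77, adjusted p = 0.0371, 0.204%). NZW/LacJ, left with 3 vehicle arrays, thus passed with and without these arrays. BTBR T+ tf/J and NOD/LtJ held no narrow-spread array and kept 4 arrays per group, so this setting does not check them. Their differences were unchanged, and their SE fell from 0.21 to 0.18 because the fit shares its spread over all groups. NOD/LtJ had an adjusted p of 0.0746 by limma with all arrays.

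Besides Stab2, Fcgr2b and Stab1 were called in single strains. Fcgr2b in NOR/LtJ was at 6.72, 8.40, 5.87 and 7.43 under isoniazid and at 8.12, 8.58, 7.75 and 7.71 under vehicle (-0.93, adjusted p = 0.0352), and the 2 groups overlapped. The 2 lowest isoniazid values were narrow-spread arrays, and without them the difference was -0.12 and did not pass (adjusted p = 0.978). Stab1 in PWK/PhJ was at 7.37, 7.13, 7.36 and 7.07 under isoniazid and at 7.76, 7.58, 7.52 and 7.68 under vehicle, without overlap (-0.40, adjusted p = 0.0481, and -0.42, adjusted p = 0.0377, without 1 narrow-spread vehicle array). PWK/PhJ had a broad response, in which 4.73% of genes were called lower with all arrays and 7.12% without the narrow-spread ones.

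The markers often moved in the same direction within a strain. All 7 were lower under isoniazid in 6 strains, AKR/J, C3H/HeJ, C57Bl/6J, C57BLKS/J, CBA/J and NOD/LtJ. Some of these differences were almost 0, such as Lyve1 in C3H/HeJ (-3e-05) and Stab1 in CBA/J (-0.005). None of the 6 strains had deaths, and 22 of all 31 strains had none. All 7 were higher in C58/J, from 0.19 for Stab1 to 0.63 for Oit3. At least 6 were lower in 14 strains and at least 6 were higher in 6. The median over the 7 markers was lowest in FVB/NJ (-0.72), NOR/LtJ (-0.63) and CE/J (-0.46) and highest in C58/J (0.42), DBA/2J (0.32) and LG/J (0.30). Without the narrow-spread arrays all 7 were lower in 4 strains, with C57Bl/6J and CBA/J no longer among them. At least 6 were then lower in 11 strains and at least 6 higher in 3. The medians of NOR/LtJ and DBA/2J were then -0.12 and 0.12.

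Across the 31 strain differences, Kdr and Oit3 had a Pearson r of 0.81, Oit3 and Fcgr2b of 0.77, and Kdr and Fcgr2b of 0.75. Stab2 was closest to Fcgr2b (0.70) and Kdr (0.64). Stab1 and Stab2, which are paralogs, had an r of 0.25, and Lyve1 had r between 0.27 and 0.41 with the other 6. All genes of a strain share the same animals and arrays, so these values are descriptions of common variation.

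The genes outside the 7 whose strain differences were most like the mean of the standardised markers were Dnase1l3 (r = 0.93), Aqp1 (0.89), Mrc1 (0.89), Igfbp7 (0.89) and Flt4 (0.87), over 31 strains. Over the 235 arrays after each group mean was subtracted, which leaves differences between animals of the same group, they were Flt4 (0.84), Aqp1 (0.83), Gpihbp1 (0.81), Ptprb (0.81) and Gpr182 (0.81). Dnase1l3 encodes a secreted DNase, Mrc1 the mannose receptor, Flt4 a receptor for VEGF-C, and Gpihbp1 the endothelial anchor of lipoprotein lipase. Over the strain differences, the 12 other sinusoidal genes had a median r of 0.79 with the mean of the standardised markers. The median r was 0.57 for the genes of the Kupffer list, 0.56 for the stellate list and -0.01 for the hepatocyte list.

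The strains that lost treated animals were then compared with the rest. Kdr had the smallest p-value of the 7 markers, with a mean difference under isoniazid of 0.02 ± 0.22 log2 units in the 9 strains with deaths and -0.20 ± 0.24 in the 22 others (SD). In the strains with deaths the Kdr difference ran from -0.42 in NON/LtJ over a median of 0.00 to 0.37 in PL/J, and in the others from -0.75 in FVB/NJ over a median of -0.25 to 0.32 in C58/J. The ranges overlapped, and 8 of the 9 strains with deaths lay above the median of the others. The difference between the groups was 0.21 log2 units (SE 0.09, 95% interval 0.03 to 0.40), with an unadjusted p of 0.025 and an adjusted p of 0.9999 by limma over all genes.

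No gene passed in this comparison (0% called), and 422 genes, 2.33% of all, had an unadjusted p under 0.05 by limma. With animals as replicates limma also called 0 genes. With the probe sets used, Kdr was the 1 marker among the 422. The Kdr difference between the groups did not pass the adjustment. It was 0.26 without the narrow-spread arrays and 0.11 to 0.33 when each animal number was left out in turn, and it passed in none of these fits.

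For 6 of the 7 markers the isoniazid difference was higher in the strains with deaths, as it was for 8170 of all 18146 genes. The median was 0.11 log2 units over the 7 against -0.01 over all genes. The markers varied together over the strains, so the 6 are not separate observations. Oit3 differed by 0.30 (SE 0.19, 95% interval -0.09 to 0.70): its difference under isoniazid averaged 0.21 ± 0.54 in strains with deaths and -0.09 ± 0.52 in the others, and 7 of the 9 lay above 0. Stab1 differed by 0.11 (SE 0.07), with 0.05 ± 0.08 in strains with deaths and -0.06 ± 0.19 in the others. Pecam1 differed by 0.12 (SE 0.15), Fcgr2b by 0.10 (SE 0.14) and Lyve1 by -0.07 (SE 0.13).

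Stab2, the marker with the largest mean fall over the 31 strains, differed between the groups by 0.07 log2 units (SE 0.15, 95% interval -0.24 to 0.38). Its difference under isoniazid averaged -0.25 ± 0.40 in the strains with deaths, of which 5 of 9 were lower, and -0.32 ± 0.42 in the others, of which 16 of 22 were lower. The interval leaves room for a difference of either sign. All 7 adjusted p-values were 0.9999.

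Within the 22 strains without deaths Stab2 (-0.32, SE 0.08, adjusted p = 0.00743) and Kdr (-0.20, SE 0.05, adjusted p = 0.00697) fell, where 16.2% of all genes were called and 7.22% called lower. Within the 9 strains with deaths no marker passed, and 0.507% of all genes were called there. Stab2 was at -0.25 (SE 0.11, adjusted p = 0.434) and Kdr at 0.02 (SE 0.07, adjusted p = 0.964) in those strains. A call in 1 group and not in the other does not show that the groups differ, and the test of that difference is the one given before.

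**Figure D2:**
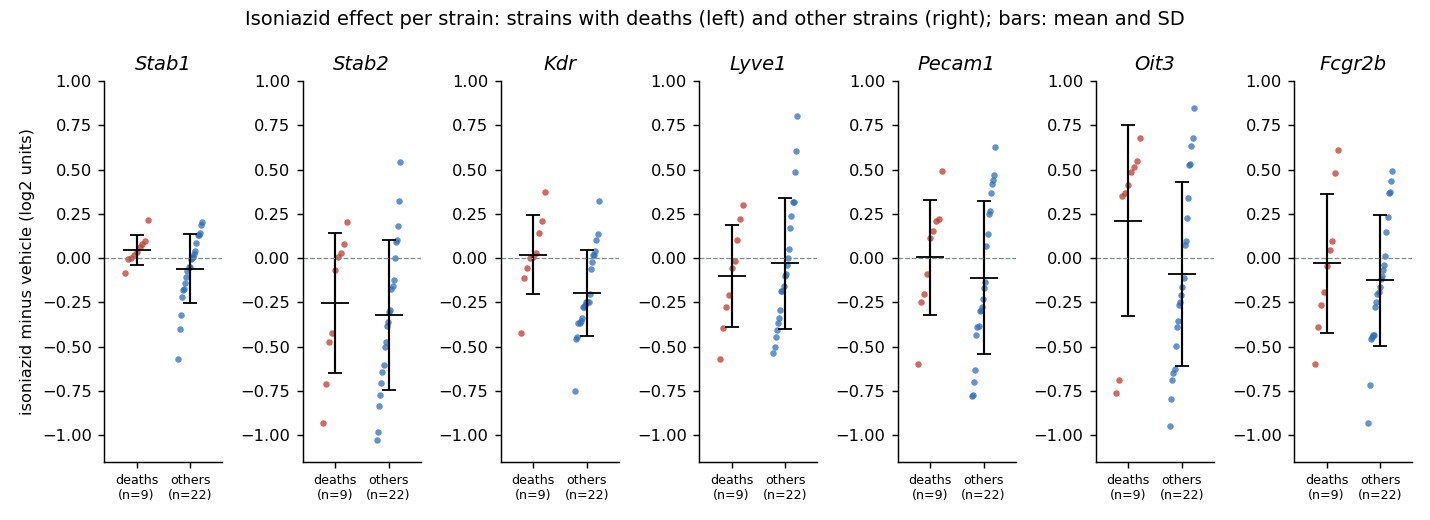
Isoniazid minus vehicle in log2 units for each of the 7 markers, with 1 point per strain, strains with deaths (red, n = 9) left of the other strains (blue, n = 22); black marks give the mean and SD. The groups overlap for all 7 markers, and for Kdr the red mean is 0.02 and the blue mean -0.20.

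Without isoniazid, 6 of the 7 markers had a lower mean in the strains in which isoniazid animals died, and none of these differences passed the test over strains. Of all 18146 genes, 8568 had a lower mean there. In vehicle animals Pecam1 averaged 3.35 ± 0.37 log2 units in strains with deaths and 3.78 ± 0.45 in the others (SD), a difference of -0.44 (SE 0.16, 95% interval -0.77 to -0.10). It ran from 2.79 over a median of 3.44 to 3.84 in the strains with deaths and from 3.06 over a median of 3.71 to 4.90 in the others. The groups overlapped, 7 of 9 strains with deaths lay below the median of the others, and 8 of the 22 others lay above all 9.

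Kdr in vehicle animals averaged 7.47 ± 0.46 in strains with deaths and 7.75 ± 0.24 in the others, a difference of -0.29 (SE 0.12, 95% interval -0.53 to -0.04). RIIIS/J had the lowest Kdr (6.82), followed by LG/J (7.06) and PL/J (7.15), and NON/LtJ had the highest of all 31 strains (8.19). Of the 9 strains with deaths, 4 lay below the whole range of the others and NON/LtJ above it, so the deaths group was the more spread out.

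Stab1 in vehicle animals averaged 7.34 ± 0.18 in strains with deaths and 7.55 ± 0.19 in the others, a difference of -0.21 (SE 0.07, 95% interval -0.36 to -0.06), and 8 of 9 strains with deaths lay below the median of the others. Oit3 differed by -0.40 (SE 0.21), Lyve1 by -0.39 (SE 0.38) and Fcgr2b by -0.29 (SE 0.17). With the 4 strains of 2 isoniazid arrays in place of all 9 with deaths, the vehicle differences were -0.02 for Oit3, -0.10 for Lyve1, -0.06 for Fcgr2b, -0.05 for Kdr, -0.16 for Pecam1 and -0.18 for Stab1, and among strains without steatosis Lyve1 differed by -1.02. Stab2 went the other way by 0.07 (SE 0.17), with 7.57 ± 0.46 in strains with deaths and 7.50 ± 0.44 in the others.

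The vehicle differences had adjusted p-values from 0.787 for Stab1 to 0.981 for Stab2, and limma over strains called 0% of all genes. At an unadjusted p under 0.05 there were 1028 genes, 5.67% of all and 2.56% as lower. With the probe sets used, 3 markers were among them, Stab1, Kdr and Pecam1. With animals in place of strains as replicates 2143 genes were called, 4.71% of all as lower, and 6 markers were called lower, all but Stab2. That count treats the 4 animals of a strain as independent, while the deaths are a property of the strain.

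In some lists of other cell types the genes also had lower vehicle means in the strains with deaths, without a call. The genes of a list share the same animals and arrays, so their counts are not separate observations. In vehicle animals all 15 Kupffer cell genes had a lower mean in the strains with deaths (median -0.36), as had all 13 stellate cell genes (median -0.21) and all 7 T and NK cell genes (median -0.20), none with a call. Most of the T and NK cell genes were dim: Cd3d, Cd3g, Cd2, Nkg7 and Ncr1 lay below the array median on 198 to 234 arrays. The mean level of the 15 Kupffer genes ran from 6.23 to 8.58 over the vehicle arrays of strains with deaths and from 5.99 to 9.60 over those of the others. The 8 hepatocyte genes had a median difference of 0.02, and all genes 0.00. These hepatocyte genes lay near the top of the scale, from 13.00 for Fga to 14.43 for Alb, where the highest value on any array was 14.65. Whether their signal was limited at that level was not tested. Of the other endothelial lists, 11 of 12 sinusoidal genes (median -0.25) and 18 of 21 general endothelial genes (median -0.25) had a lower mean, and 3 of 6 genes of larger vessels (median -0.00). Among the genes of larger vessels, Cd34 and Vwa1 lay below the array median on all 235 arrays. The part of these cell types in the marker differences was not tested.

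**Figure D3:**
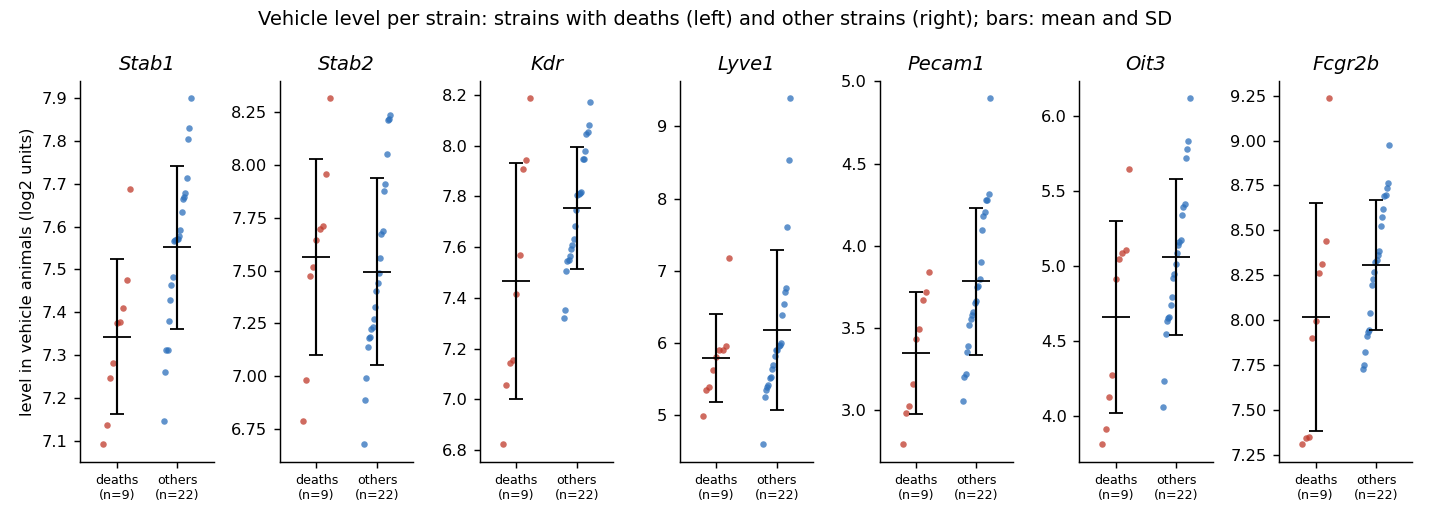
Mean level in vehicle animals in log2 units for each of the 7 markers, with 1 point per strain, strains with deaths (red, n = 9) left of the other strains (blue, n = 22); each panel has its own axis, which does not start at 0, and black marks give the mean and SD. The mean of the strains with deaths is the lower one for 6 markers, and for Stab2 the mean is 7.57 in strains with deaths and 7.50 in the others.

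Under isoniazid, in the survivors, 6 of the 7 markers again had a lower mean in the strains with deaths, as had 9059 of all 18146 genes. Limma over strains called 0% of all genes, with 607 genes (3.35%) and 0 markers at an unadjusted p under 0.05. Kdr averaged 7.49 ± 0.39 log2 units in strains with deaths and 7.56 ± 0.22 in the others (SD), a difference of -0.07 (SE 0.11). Oit3 averaged 4.87 ± 0.47 in strains with deaths and 4.97 ± 0.65 in the others (-0.10, SE 0.23), and Stab1 averaged 7.39 ± 0.21 in strains with deaths and 7.49 ± 0.19 in the others (-0.10, SE 0.08).

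Pecam1 differed by -0.32 (SE 0.19) and Fcgr2b by -0.20 (SE 0.15) under isoniazid. Lyve1 differed by -0.46 (SE 0.37) and Stab2 by 0.14 (SE 0.17). The adjusted p-values of all 7 were 0.9989. With animals as replicates 1003 genes were called, 2.90% of all as lower, and Lyve1 was the 1 marker among them. The vehicle animals and the survivors of each strain also make up the isoniazid difference of that strain, so these 3 comparisons are not independent.

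Each of the 7 markers differed between strains without treatment. In vehicle animals the F test across the 31 strains was called for 53.4% of all genes and for all 7 markers. Lyve1 had the largest F of the 7 (21.4, adjusted p = 9.45e-43), followed by Stab2 (9.33, adjusted p = 3.2e-22) and Fcgr2b (5.44, adjusted p = 1.2e-12). The range of strain means was 4.80 log2 units for Lyve1, at the 99.5th percentile of all genes, and 0.81 for Stab1, at the 59.0th.

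Lyve1 was highest in PWK/PhJ, at 9.60, 9.17, 8.74 and 8.57 log2 units in the isoniazid animals and 8.96, 9.65, 9.37 and 9.58 in the vehicle animals. C57BR/cdJ followed with 7.69, 8.12, 8.41 and 8.57 under isoniazid and 8.90, 8.32, 8.91 and 8.00 under vehicle. PWK/PhJ and C57BR/cdJ vehicle animals did not overlap, and in each strain the treated animals stood within or near the range of the untreated ones.

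Lyve1 in C58/J was at 8.11, 7.87, 7.20 and 8.51 under isoniazid and at 7.26, 7.58, 8.08 and 7.49 under vehicle. At the low end, CE/J had Lyve1 at 4.82, 3.85, 4.79 and 4.53 under isoniazid and 4.49, 4.88, 4.89 and 4.11 under vehicle. Above CE/J, RIIIS/J averaged 4.99 ± 0.25 and NOR/LtJ 5.25 ± 0.22 in vehicle animals (SD, n = 4 each).

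In the order of the 31 vehicle means of Lyve1, 5 of the 30 gaps between neighbours were larger than both strains' SDs: PWK/PhJ (9.39 ± 0.31), C57BR/cdJ (8.53 ± 0.45) and C58/J (7.60 ± 0.35) stood apart from each other and from the rest at the top, and NOR/LtJ, RIIIS/J and CE/J (4.59 ± 0.37) stood apart from each other at the bottom (SD, n = 4 each). The other 25 neighbours did not differ beyond their spread. The second probe set of Lyve1 put the same strains at both ends, with vehicle means of 9.56 in PWK/PhJ, 8.93 in C57BR/cdJ and 3.17 in CE/J and a range of 6.39. Whether sequence variants under the probes alter the signal of a strain was not tested.

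**Figure D4:**
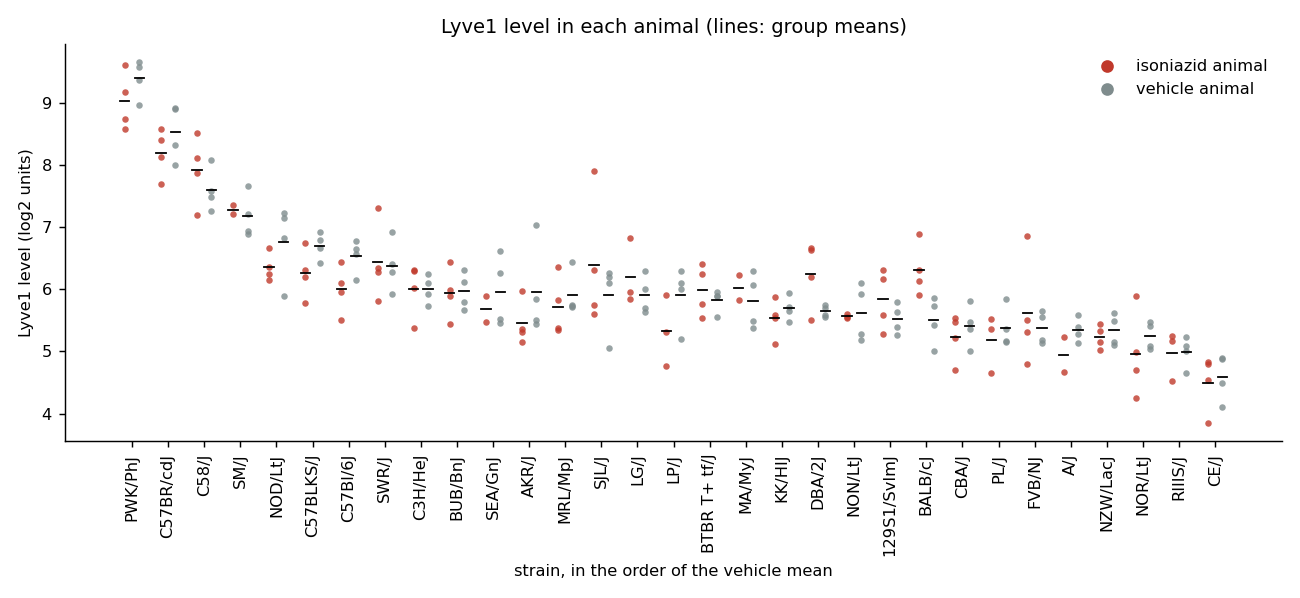
Lyve1 level in log2 units in every animal of the 31 strains, in the order of the vehicle mean, with isoniazid animals (red) left of vehicle animals (grey) and short lines at the group means; the axis does not start at 0. Vehicle means run from 9.39 in PWK/PhJ to 4.59 in CE/J, and the same 2 strains are the highest and the lowest under isoniazid.

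For the other markers neighbouring strains mostly merged. Fcgr2b had 1 gap beyond both SDs, between NON/LtJ (9.24 ± 0.06) and FVB/NJ (8.97 ± 0.12), and its lowest vehicle means were in LG/J (7.35), PL/J (7.35) and RIIIS/J (7.31). Stab2 was highest in NON/LtJ (8.32), BTBR T+ tf/J (8.24) and C3H/HeJ (8.22) and lowest in PWK/PhJ (6.89), PL/J (6.79) and BUB/BnJ (6.68), with 1 gap beyond both SDs. Kdr was highest in NON/LtJ (8.19), FVB/NJ (8.17) and BTBR T+ tf/J (8.08), with no such gap.

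Stab1 was highest in vehicle animals of FVB/NJ (7.90), BTBR T+ tf/J (7.83) and C57BR/cdJ (7.80) and lowest in CE/J (7.15), PL/J (7.14) and LG/J (7.09). Pecam1 was highest in C57BR/cdJ (4.90), PWK/PhJ (4.32) and C57Bl/6J (4.28) and lowest in PL/J (3.03), LG/J (2.99) and RIIIS/J (2.79). Oit3 was highest in C57BR/cdJ (6.12), C58/J (5.84) and C57Bl/6J (5.78) and lowest in PWK/PhJ (4.06), LP/J (3.91) and PL/J (3.81). None of these 3 genes had a gap between neighbours beyond both SDs. PL/J, a strain with deaths, was among the 3 lowest for Stab1, Stab2, Kdr, Pecam1, Oit3 and Fcgr2b, and NON/LtJ, also with deaths, was the highest for Stab2, Kdr and Fcgr2b.

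Over the 31 vehicle means, Fcgr2b, Oit3, Kdr, Stab1 and Pecam1 had an r of 0.82, 0.76, 0.76, 0.74 and 0.73 with the mean of the other markers, while Lyve1 had 0.20 and Stab2 0.17. Lyve1 and Stab2 themselves had an r of -0.34. Strains that share ancestry are not independent, so these values are descriptions.

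Steatosis under isoniazid was the other property that the submitters gave for each strain. Lyve1 had a mean difference under isoniazid of 0.12 ± 0.36 log2 units in the 13 steatosis strains and -0.17 ± 0.28 in the 18 without (SD), which differ by 0.28 (SE 0.11, 95% interval 0.06 to 0.51). The adjusted p was 0.9998, limma over strains called 0% of genes, and 491 genes (2.71%) had an unadjusted p under 0.05, Lyve1 among them. That holds for the Lyve1 probe set used, and the second one differed by 0.27 with a larger SE of 0.19. Stab2 went the other way, with -0.44 ± 0.41 in steatosis strains and -0.20 ± 0.39 in those without (-0.23, SE 0.14, adjusted p = 0.9998). The other 5 markers differed by -0.13 for Kdr to 0.01 for Stab1.

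In vehicle animals Lyve1 averaged 5.68 ± 0.53 in the steatosis strains and 6.34 ± 1.16 in those without (SD), a difference of -0.66 (SE 0.33, 95% interval -1.34 to 0.02, adjusted p = 0.988). PWK/PhJ, C57BR/cdJ and C58/J, the 3 strains with the highest Lyve1, had no steatosis. The other 6 markers differed by at most 0.08 log2 units in size, from -0.08 for Oit3 to 0.03 for Fcgr2b. Limma over strains called 0% of genes for this vehicle comparison, and 737 genes (4.06%) had an unadjusted p under 0.05.

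Other genes of endothelium were read from lists chosen with results of these data known, and their counts stand beside 9.85% of all genes called lower. Of the 12 other sinusoidal genes, 2 fell over the 31 strains: Maf, a transcription factor of sinusoidal identity, by 0.16 log2 units (SE 0.04, adjusted p = 0.00236), and Clec1b, a C-type lectin receptor, by 0.20 (SE 0.06, adjusted p = 0.00825). Mrc1 (-0.13, adjusted p = 0.0709) and Clec4g (-0.11, adjusted p = 0.116) did not pass. The median of the 12 was -0.09, close to the -0.08 of the 7 markers.

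Of 21 general endothelial genes, 5 fell and 0 rose, with a median of -0.06, where 9.85% of all genes fell. Nrp1, a co-receptor for VEGF, fell by 0.31 (SE 0.07, adjusted p = 0.00204), S1pr1, a receptor for sphingosine phosphate, by 0.19 (adjusted p = 0.000564), Tie1, a receptor of the angiopoietin system, by 0.13 (adjusted p = 0.0105), and Esam, a junction protein, by 0.10 (adjusted p = 0.0142). None of the 6 genes of larger vessels passed, with Vwf at -0.09 and Edn1 at 0.04.

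Among the ligands and co-receptors around Kdr, 2 of 7 fell, again beside 9.85% of all genes. Vegfb, a ligand of the VEGF receptor Flt1 but not of Kdr, fell by 0.62 (SE 0.04, adjusted p = 2.4e-12), and Nrp2, a co-receptor, by 0.20 (SE 0.04, adjusted p = 0.000584). Of 9 angiocrine and zonal genes 2 fell: Wnt2, a Wnt ligand made by endothelium around the central vein, by 0.27 (SE 0.05, adjusted p = 0.000317), and Efnb2, an ephrin of arterial endothelium, by 0.09 (SE 0.03, adjusted p = 0.00935). Of 6 activation and flow genes, Icam1, the leukocyte adhesion molecule, fell by 0.32 (SE 0.04, adjusted p = 2.81e-08), and hepatocytes and macrophages make it too. No gene of these lists rose.

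Among the lists of other cell types that share the sinusoid, most genes of the Kupffer cell list fell. Of 15 Kupffer cell genes 10 fell and 0 rose (median -0.22), where 9.85% of all genes fell, among them Slc40a1, the iron exporter (-0.54, adjusted p = 7.19e-11), Csf1r (-0.28, adjusted p = 0.00234), Cd5l (-0.28, adjusted p = 0.00355) and Lyz2 (-0.26, adjusted p = 0.00698). The mean level of the 15 ran from 5.65 to 9.51 log2 units over the isoniazid arrays and from 5.99 to 9.60 over the vehicle arrays, and that of the 7 markers ran from 5.28 to 7.60 over the isoniazid arrays and from 5.37 to 7.60 over the vehicle arrays. Of 13 stellate cell genes 1 fell, Reln (-0.15, adjusted p = 0.0389), a share near the 9.85% of all genes, and the median was -0.07. Of 8 hepatocyte genes 1 rose, Cps1 (0.17), and 2 fell, Ambp (-0.07) and Fga (-0.10). The part of the Kupffer cell genes in the falls of Stab2 and Kdr was not tested.

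The remaining lists held few calls, and lists this small say little beside the 9.85% of all genes that fell. B cell genes had 2 of 4 lower, Cd79b (-0.16) and Ms4a1 (-0.13), and T and NK cell genes 0 of 7. Neutrophil, red cell and bile duct genes had 1 lower each, S100a9 (-0.23), Alas2 (-0.21) and Sox9 (-0.14), of 3, 3 and 6. Platelet and lymphatic genes had 0 of 4 and 0 of 2.

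Between the strains with deaths and the others no gene of any list passed for the isoniazid difference. The list medians there were 0.11 for the 12 sinusoidal genes, 0.08 for the 21 general endothelial genes, 0.14 for the 15 Kupffer cell genes, all 15 of which were above 0, and 0.00 for hepatocyte genes. Cdh5, the cadherin of endothelial junctions, had a mean difference under isoniazid of 0.12 in strains with deaths and -0.13 in the others (0.24, SE 0.12, adjusted p = 0.9999), and Slc40a1 had -0.40 in strains with deaths and -0.60 in the others (0.20, SE 0.09, adjusted p = 0.9999).

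**Figure D5:**
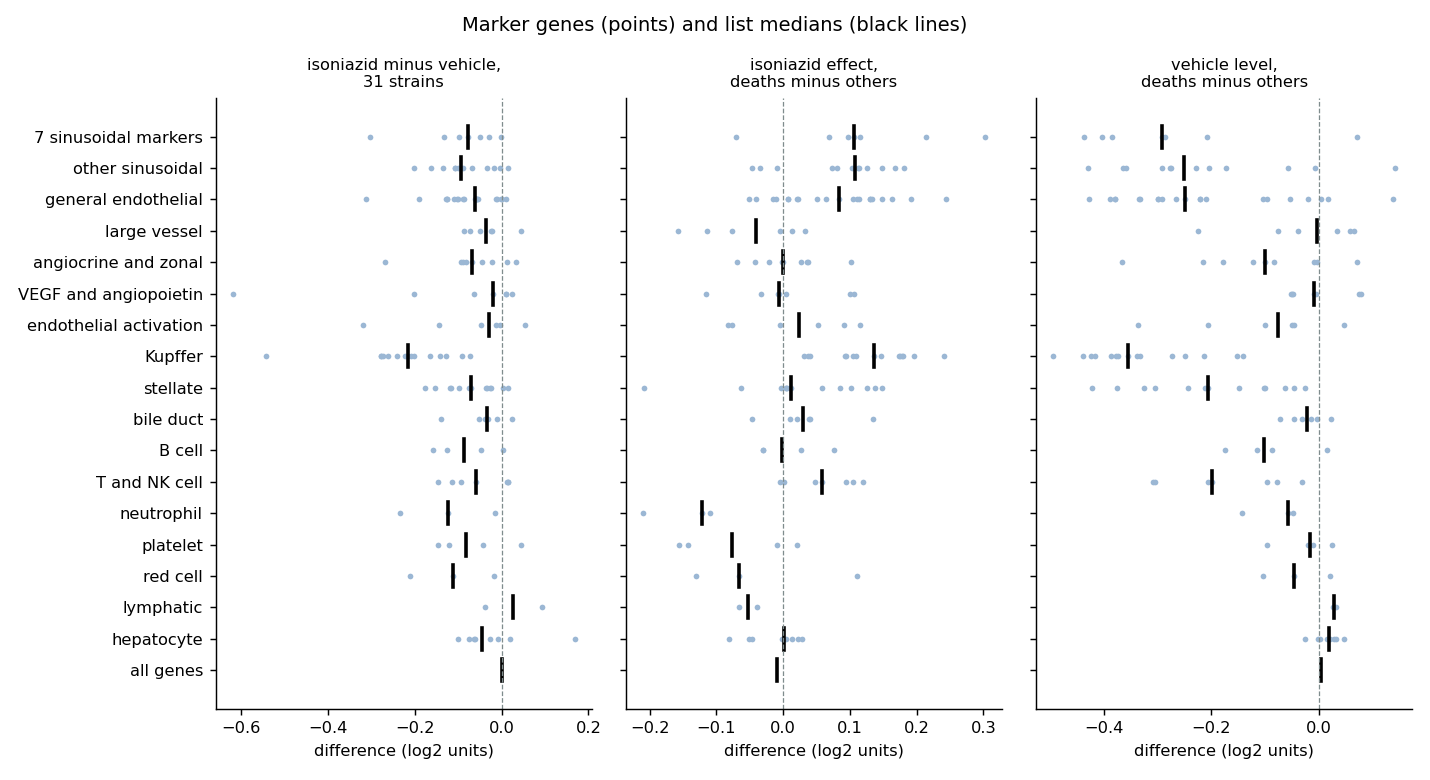
Differences in log2 units for the genes of each list (points) with the list's median (black lines), for isoniazid minus vehicle over 31 strains (left), the isoniazid difference of strains with deaths minus that of the other strains (middle) and the vehicle level of strains with deaths minus that of the other strains (right). The medians of the 7 sinusoidal markers are -0.08, 0.11 and -0.29, and those of the Kupffer cell list are -0.22, 0.14 and -0.36.

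The other probe sets of Fcgr2b gave similar differences under isoniazid, with 1 on the other side of the threshold. The 1 used had -0.10 (adjusted p = 0.323), and the others -0.07 (adjusted p = 0.129), -0.14 (adjusted p = 0.0496), -0.14 (adjusted p = 0.0587) and -0.02 (adjusted p = 0.688). The last was dim, at a mean of 2.09 log2 units. By deaths, the isoniazid effect differed by 0.10 (SE 0.14) for the 1 used. In the same order the others had 0.10, 0.22 (SE 0.11), 0.09 and -0.03. The vehicle level differed by -0.29 (SE 0.17) for the 1 used, and by -0.20, -0.33 (SE 0.15), -0.27 and 0.03 for the others. None of these passed the adjustment, and the unadjusted counts of markers by deaths hold for the probe sets used. The second Lyve1 probe set had -0.02 (adjusted p = 0.909) over the strains.

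The arrays were scanned on 10 dates, each of which held both treatments. Within a date, from 1 to 6 strains had both isoniazid and vehicle animals. The mean Stab2 difference over those strains was below 0 on 7 of the 10 dates, with a median of -0.28 and a range from -1.07 to 0.64, and that of Kdr on 6 of 10, with a median of -0.13 and a range from -0.52 to 0.53. With scan date as a term over all arrays the differences were -0.31 for Stab2 and -0.13 for Kdr, and both passed.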

How the data were processed

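RNA of the left liver lobe was measured on Affymetrix 3' expression arrays, 1 array per animal. The deposited values are log2 levels per probe set, which per the submitters' processing notes the authors made by RMA with Affymetrix Power Tools, whose version is not given in the sources used here. This method subtracts background and equalises the distributions of the arrays, so a shift common to all genes is removed and low values are compressed. The precision is limited by the number of arrays, which hold no counts.

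Probe sets were named through the platform annotation, which gave 1 symbol for 34717 of 44721 probe sets (18146 genes), 872 had several, 9072 had none and 60 were controls. No filter on dim genes was applied. Deaths and steatosis belong to the strain, so the strain was the replicate: for each gene the strain differences or strain means were tested with limma 3.58.1 (lmFit and eBayes, two-sided) in R 4.3.3, with Benjamini-Hochberg adjustment over all genes. Effects within strains and the F tests came from limma with animals as replicates over 62 groups of strain and treatment (173 residual degrees of freedom). The steps were tested on simulated data.

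All 7 markers are reported in every comparison. From each other list the text could name up to 4 genes with the largest t over 31 strains and up to 2 by deaths, and the 5 genes most like the markers. The markers, the lists and the part of the data reported were chosen with earlier results of these data known. The alternatives were averaging of probe sets, array centring, scan date, trend and robust settings, dim genes left out (40th percentile), animals as replicates, a replicate block, left-out animals and strains, narrow-spread arrays left out, a fold threshold of 1.5, and subsets of strains.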

Additional observations from a re-analysis of the deposited data

Results flagged for a closer look

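The isoniazid difference varied between strains beyond the spread between animals for Stab2 (adjusted p = 1.11e-06, limma F test) and Oit3 (adjusted p = 0.0354), which is a difference between groups under the same contrast. Without the narrow-spread arrays the adjusted p was 2.83e-05 for Stab2 and 0.0653 for Oit3.

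Single animals stood far from the others of their group. Of 392 groups examined, 24 held such a value, and about 20 are expected by chance, at 1 in 20 groups. Stab1 was lowest at 7.16 in 1 isoniazid animal of SWR/J. Stab2 was lowest at 7.41 in CBA/J and 6.63 in KK/HIJ and highest at 7.58 in NOD/LtJ, all isoniazid animals. Kdr was lowest at 6.81 in 1 FVB/NJ isoniazid animal and at 7.56 in BUB/BnJ and 7.28 in KK/HIJ vehicle animals, and highest at 7.76 in 1 C57BLKS/J vehicle animal. The FVB/NJ animal belongs to the strain with the lowest Kdr difference, and the other 3 isoniazid animals there were at 7.62, 7.62 and 7.63, against 8.08, 8.02, 8.47 and 8.12 in the vehicle animals.

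Lyve1 was lowest at 5.55 in BTBR T+ tf/J and 5.06 in SJL/J and highest at 6.44 in MRL/MpJ, all vehicle animals, and among the vehicle means of the 9 strains with deaths SM/J stood apart at 7.17. Pecam1 was lowest at 2.41 in 1 RIIIS/J vehicle animal. Oit3 was lowest at 3.82 in AKR/J, 5.56 in C57BR/cdJ and 4.72 in SWR/J and highest at 6.16 in BTBR T+ tf/J and 5.48 in SJL/J isoniazid animals, and lowest at 4.64 in BUB/BnJ and 3.39 in PL/J vehicle animals. Fcgr2b was lowest at 7.63 in CBA/J and 7.24 in FVB/NJ isoniazid animals and at 7.91 in C3H/HeJ and 8.48 in CBA/J vehicle animals.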

How the results depend on the processing

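Stab2 kept its direction and call over the 31 strains in all settings but the 1.5-fold threshold. Without single animal numbers or strains it ran from -0.33 to -0.28. The number of markers called over 31 strains was 2, and 1 with arrays centred, with the replicate block and without narrow-spread arrays, 1 to 2 without single animal numbers, and 0 with the 1.5-fold threshold, where 54 genes of 3636 passed. The other sizes of that gene count were within 1.5 times. In the pairing check, isoniazid and vehicle arrays of the same number in a strain did not deviate together (median r -0.023 over 111 pairs, against 0.009 over 333 pairs of different numbers), so the numbers pair no samples. The replicate block put Kdr at -0.1125, Stab2 at -0.2959 and Oit3 at 0.0165 over 31 strains and Stab1 at -0.0188 by steatosis, and left 3445 genes called.

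With animals as replicates limma called 2143 genes and 6 markers for the vehicle level by deaths, 1003 and 1 for the isoniazid level by deaths, 35 genes for the isoniazid difference by steatosis, and 1957 and 1 for the vehicle level by steatosis; these call 0 over strains, and 0 to 1 gene for the last without single animal numbers or strains. The difference of isoniazid effects by deaths called 0 genes in all settings.

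Signs of values without a call turned as follows. Oit3 over 31 strains was 0.0012 with arrays centred, 0.0019 with scan date and 0.0607 without narrow-spread arrays, and -0.0478 to 0.0838 without single animal numbers or strains, and Stab1 was -0.0696 to 0.01. By deaths in strains without steatosis (8 against 10) the difference of effects was -0.0388 for Stab2, 0.0362 for Lyve1, -0.0125 for Pecam1 and -0.0736 for Fcgr2b, and without single animal numbers or strains -0.1726 to 0.0816 for Lyve1 and -0.0201 to 0.1774 for Fcgr2b. The vehicle level of Stab2 by deaths was -0.0225 to 0.1689 in those leave-outs. The isoniazid level by deaths was 0.1813 for Kdr and 0.1593 for Oit3 with strains of 2 against 4 arrays, and -0.2097 to 0.0014 for Oit3 without single animal numbers.

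Settings for steatosis were added after seeing the data. With scan date the difference of effects was 0.0044 for Pecam1, 0.1051 for Oit3 and 0.005 for Fcgr2b, and the vehicle level -0.0105 for Kdr and -0.0023 for Fcgr2b; without narrow-spread arrays Pecam1 was 0.0141. Without single animal numbers or strains the differences of effects were -0.0219 to 0.0537 for Stab1, -0.1523 to 0.0259 for Pecam1, -0.1544 to 0.1119 for Oit3 and -0.194 to 0.0388 for Fcgr2b, and the vehicle levels -0.1091 to 0.023 for Stab2, -0.0334 to 0.0678 for Kdr, -0.0724 to 0.0513 for Pecam1 and -0.0293 to 0.1059 for Fcgr2b. The cause of these changes was not tested. Pecam1 lay below the array median on 181 of 235 arrays, which limits what its differences show.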
